A study of Saccharomyces cerevisiae with 5 samples.

Results

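The genes described here are 5 genes of the Ehrlich pathway of budding yeast (Saccharomyces cerevisiae): the transaminases ARO8, ARO9 and BAT2, the decarboxylase ARO10 and the regulator ARO80. They were picked from a list of gene names, with earlier results of these same arrays known, and matched to the deposited table by open reading frame (ORF) identifier and by the gene names in the scanner files. All 5 were found, among 6205 ORFs on the array, each with 1 spot and with a value on all 5 arrays. Because the choice was made with the ratios in view, their ratios are given as a description. Where fits of all ORFs called some of these genes, the calls are part of that description and support nothing.

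The Ehrlich pathway breaks down amino acids that are taken up from the medium. A transaminase moves the amino group onto another keto acid, a decarboxylase turns the remaining keto acid into an aldehyde, and the aldehyde is reduced to a fusel alcohol or oxidised to a fusel acid. Phenylalanine, tyrosine, tryptophan, leucine, isoleucine and valine enter it, and the products give fermented drinks much of their aroma. The genes for aromatic amino acids are switched on by the activator Aro80 when such amino acids are present, and several genes of the pathway also answer to the quality of the nitrogen source.

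The study set cells placed in a medium very rich in glucose against cells in the usual medium. Cultures grown overnight in YP, a rich medium, with 2% glucose were brought to an OD600 of 0.1 in fresh YP that held 20% glucose, or 2% as the control, and cells were frozen 1 hour later. Each of 5 two-colour arrays, spotted slides read at a Cy5 and a Cy3 wavelength, compared RNA labelled 20% with RNA labelled 2%. The 20% label was in Cy5 on arrays 2 and 5 and in Cy3 on arrays 1, 3 and 4. No strain, genotype or culture is named in the labels used here, and they do not say whether arrays share RNA, so the spread between arrays may be technical.

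Each ratio is the log2 of signal labelled 20% over signal labelled 2% glucose, following the dye labels. By those labels, 4 of 5 genes with a known response to glucose or osmotic stress ran opposite to it on all 5 arrays. GPD1, an enzyme of glycerol synthesis that osmotic stress induces, lay between -6.88 and -1.78 and was below 0 on 5 of 5 arrays. HXT1, a transporter induced by high glucose, was also below 0 on all 5 arrays, and HXT2, a transporter repressed by high glucose, was above 0 on all 5. Of 5 such genes HXT2 was called higher (2.26 ± 0.15 SE, limma adjusted p = 0.00924), and HXT1 (-2.54 ± 0.26, 0.0294) and GPP2, a glycerol phosphatase (-2.33 ± 0.38, 0.043), lower. GPD1 (-3.96 ± 0.97, adjusted p = 0.0733) and STL1, a glycerol importer (-3.93 ± 1.45, 0.165), did not pass. STL1 was at -0.10 and 0.08 on arrays 1 and 3, had no value on array 2, and was at -6.66 and -5.64 on arrays 4 and 5. Without array 1 or 3 this list held 0 calls. If the dye labels were exchanged, every sign below would turn, so the samples are called by their labels throughout. The arrays fell into 2 sets: the correlation across ORFs was 0.95 between arrays 4 and 5 and 0.60 to 0.86 among arrays 1, 2 and 3, but 0.26 to 0.37 between the sets. The closest pairs, arrays 4 and 5 and arrays 2 and 3 (0.86), each hold both dye orientations, and whether a pair shares RNA is not stated. Scanner files were used for arrays 4 and 5 alone, where the spots of the 5 genes were 8.59 to 120 times local background, and 0 were flagged or saturated.

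ARO10 and BAT2 were higher in the RNA labelled 20% on every array, ARO8 stayed close to 0, ARO9 changed sign between the sets of arrays, and ARO80 stayed close to 0. ARO10 differed most, at 2.23-fold in the fit over all arrays, and BAT2 followed at 1.46-fold. In the fit of all ORFs, 2 of the 5 genes, ARO10 and BAT2, were called higher and 0 lower (limma, adjusted p under 0.05). In RNA of whole cultures, fewer cells of a kind and less RNA per cell cannot be told apart. Over all 5447 ORFs tested 3.69% were called, 2.24% higher and 1.45% lower. Nothing is read from this count, since the genes were chosen with this contrast known. The count was 2 without array 4 and 0 without array 1, 2, 3 or 5, and the fits without these 4 arrays called 3, 1, 0 and 3 ORFs over the whole array.

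**Figure D1:**
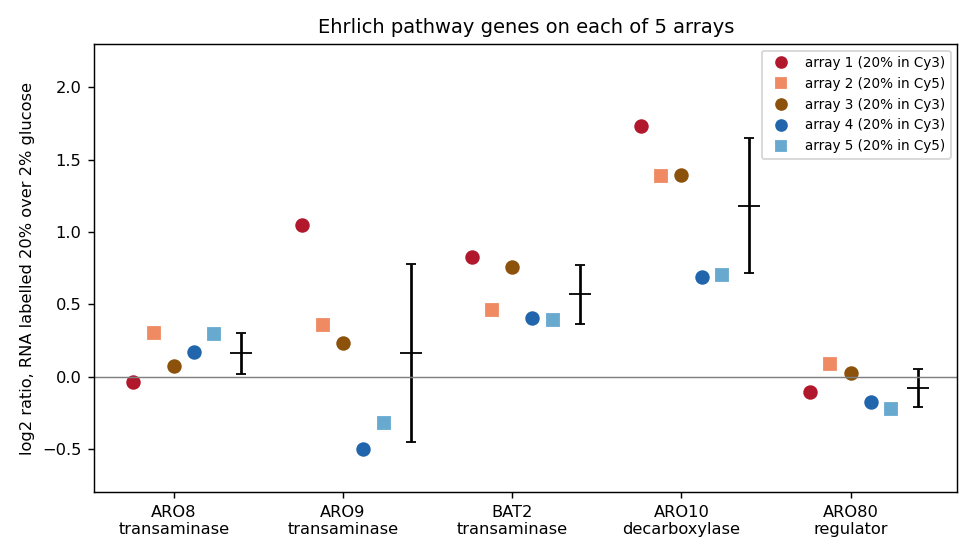
Log2 ratio, RNA labelled 20% over 2% glucose, for the 5 genes on each array, with squares for arrays that carried the 20% label in Cy5 and circles for Cy3; the black bar is the mean ± SD of the 5 arrays. ARO10 and BAT2 lie above 0 on every array, ARO8 lies between -0.03 and 0.30, ARO80 between -0.22 and 0.09, and ARO9 lies above 0 on arrays 1 to 3 and below 0 on arrays 4 and 5.

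ARO8 encodes aromatic aminotransferase I, which mainly makes phenylalanine and tyrosine in growing cells. The gene lies on chromosome VII, with an ORF of 1503 base pairs per the annotation in the scanner files. Its log2 ratio was -0.03, 0.30, 0.08, 0.17 and 0.29 on arrays 1 to 5. The values centred on 0.16 ± 0.14 (SD, n = 5), and the fit with a dye term gave 0.18 ± 0.08 (SE). The 2 arrays with the 20% label in Cy5 gave the highest ratios, with a mean of 0.30, against 0.07 on the 3 arrays with that label in Cy3. ARO8 was alone among the 5 genes in this split by dye, which 3.47% of the 4693 ORFs with 5 values show.

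ARO9 encodes aromatic aminotransferase II, the inducible enzyme of aromatic amino acid breakdown and a target of Aro80. It lies on chromosome VIII and its ORF is 1542 base pairs long. Its log2 ratio was 1.05 on array 1, 0.36 on array 2 and 0.23 on array 3, but -0.50 on array 4 and -0.32 on array 5. Array 1 stood highest: there ARO9 ranked 68th from the top of 5659 ORFs, and on array 4 it ranked 399th from the bottom of 5792. The mean was -0.41 ± 0.13 (SD, n = 2) on arrays 4 and 5 and 0.55 ± 0.44 (SD, n = 3) on arrays 1 to 3, so the ranges of the sets did not overlap. This sign pattern, above 0 on arrays 1 to 3 and below 0 on arrays 4 and 5, was shared by 9.76% of the ORFs with 5 values. The fit over all arrays gave 0.14 ± 0.24 (SE), a value between opposite ratios. Without array 1 it was -0.06 and without array 2 it was -0.03.

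BAT2 encodes the cytosolic branched-chain aminotransferase, which starts the breakdown of leucine, isoleucine and valine. It lies on chromosome X and its ORF is 1131 base pairs long. Its log2 ratio was 0.82, 0.46, 0.76, 0.41 and 0.39 on arrays 1 to 5. All 5 values were above 0, as were those of ARO10 and of 16.7% of the ORFs with 5 values, while 0 of the 5 genes and 19.8% of ORFs were below 0 on all arrays. The fit gave 0.55 ± 0.09 (SE). Array 1 gave the highest ratio, 1.77-fold, and array 5 the lowest, 1.31-fold. BAT2 ranked 360th from the top of the 5447 ORFs tested.

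ARO10 encodes the phenylpyruvate decarboxylase, which acts on the keto acids of aromatic and branched-chain amino acids and is the second known target of Aro80 in the pathway. It lies on chromosome IV and its ORF is 1908 base pairs long. Its log2 ratio was 1.74, 1.39 and 1.39 on arrays 1, 2 and 3, and 0.69 and 0.71 on arrays 4 and 5. It was the highest of the 5 genes on each array. On array 1 the ratio was 3.33-fold and ranked 14th from the top, and on array 5 it was 1.63-fold and ranked 401st of 5556 ORFs. The mean was 0.70 ± 0.01 (SD, n = 2) on arrays 4 and 5, or 1.62-fold, and 1.51 ± 0.20 (SD, n = 3) on arrays 1 to 3, or 2.84-fold. The fit over all arrays gave 1.16 ± 0.19 (SE), 62nd from the top of all ORFs tested.

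ARO80 encodes the zinc cluster activator that binds upstream of ARO9 and ARO10 and turns them on in the presence of aromatic amino acids. It also lies on chromosome IV, with an ORF of 2853 base pairs. Its log2 ratio was -0.11, 0.09, 0.03, -0.18 and -0.22 on arrays 1 to 5. The values lay on both sides of 0, and the fit gave -0.08 ± 0.09 (SE). On arrays 4 and 5 the mean was -0.20 ± 0.03 (SD, n = 2), and 0.003 ± 0.10 (SD, n = 3) on arrays 1 to 3. The array measures the RNA of this regulator and not whether its protein is active.

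The known targets of Aro80 both had lower ratios on arrays 4 and 5, and the gap between them had a range of 0.50 over the 5 arrays. Neither trait is particular to these targets. ARO80, BAT2 and 28.7% of ORFs with 5 values had the same order of the sets. The gap between BAT2 and ARO10 had a range of 0.65, and that between BAT2 and ARO9 a range of 1.13. The log2 ratio of ARO10 exceeded that of ARO9 by 0.69 on array 1, 1.03 on array 2, 1.16 on array 3, 1.19 on array 4 and 1.03 on array 5. The gap averaged 1.11 on arrays 4 and 5 and 0.96 on arrays 1 to 3, a difference smaller than the 0.96 by which ARO9 itself, or the 0.81 by which ARO10 itself, was lower on arrays 4 and 5. The ratio of ARO10 also exceeded that of ARO80 on 5 of 5 arrays, by 0.86 to 1.84, whereas that of ARO9 exceeded it on 3 of 5.

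The branched-chain pair differed in another way. BAT1 encodes the mitochondrial branched-chain aminotransferase, which serves synthesis. Its log2 ratio was -0.05, 0.68, 0.25, 1.15 and 1.02 on arrays 1 to 5, where the values of arrays 4 and 5 are deposited values divided by 10. BAT2 exceeded BAT1 by 0.88 on array 1 and 0.50 on array 3, and was below it by values of -0.22, -0.74 and -0.62 on arrays 2, 4 and 5. BAT2 thus stood lowest on arrays 4 and 5, where BAT1 stood highest. In the fit BAT1 was at 0.65 ± 0.19 (SE) and did not pass the threshold (limma adjusted p = 0.0982).

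**Figure D2:**
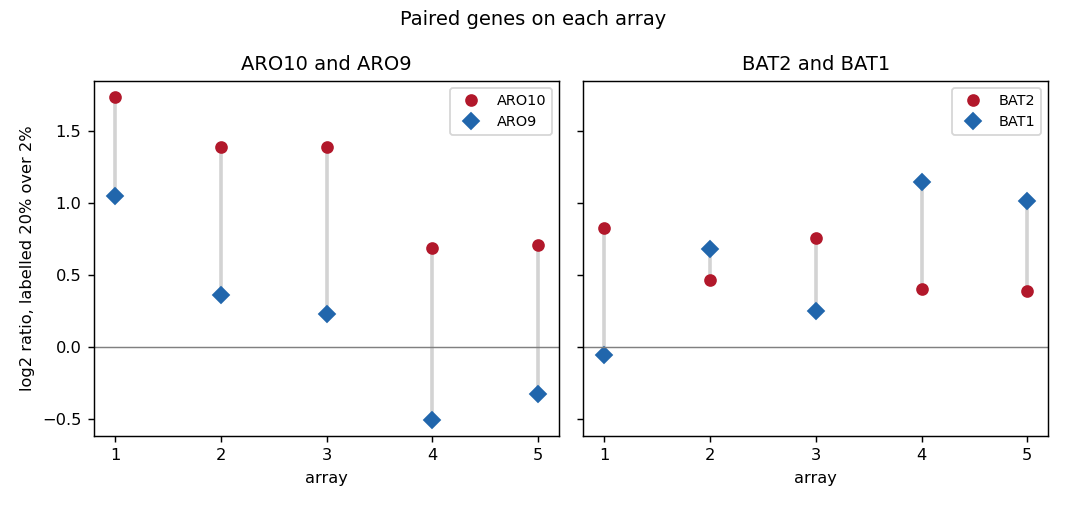
Log2 ratio, RNA labelled 20% over 2% glucose, of ARO10 and ARO9 (left) and of BAT2 and BAT1 (right) on arrays 1 to 5; grey bars join the genes of a pair on 1 array. ARO10 lies above ARO9 on every array by 0.69 to 1.19, whereas BAT2 lies above BAT1 on arrays 1 and 3 only.

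For 4 of the 5 genes, ARO9, ARO10, ARO80 and BAT2, all values on arrays 1 to 3 lay above both values on arrays 4 and 5. Of all ORFs with 5 values, 28.7% showed this order and 30.2% the opposite one. BAT2 was nearest to overlap, with a lowest value of 0.46 on arrays 1 to 3 and a highest of 0.41 on arrays 4 and 5. Fitted on arrays 1 to 3 alone, ARO10 and BAT2 were called higher and 0 of the 5 genes lower, where 11.5% of ORFs were called higher and 5.96% lower. Fitted on arrays 4 and 5 alone, ARO8, ARO10 and BAT2 were called higher and ARO9 and ARO80 lower, where 27.9% of ORFs were called higher and 26.6% lower. That fit held no dye term, unlike the main fit, and rests on 2 arrays that are close to each other and may share RNA. Nothing is read from the calls of the 5 genes in these fits, since the genes were chosen with the ratios known. With the set of arrays as a further term, 2 of the 5 were called higher and 0 lower, against 16.4% and 13.3% of ORFs. The labels name no difference between the sets, and what sets them apart was not tested.

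The scanner intensities show what lay behind the ratios of arrays 4 and 5. The ARO10 spot, as median minus background, read 1811 in the RNA labelled 20% and 1284 in the RNA labelled 2% on array 4, and 885 and 486 on array 5. The ARO9 spot read 1926 and 3021 on array 4, and 1317 and 1387 on array 5, in the same order of labels. On array 5 the ARO9 signals were thus close, on an array where the median spot read 695.5 under the 20% label and 593 under the 2% label. Its ratio of -0.32 is relative to that array's centre. The BAT2 spot read 1286 with the 20% label and 1003 with the 2% label on array 4, and 1534 and 979 on array 5. ARO8 read 12120 and 10923 on array 4, and 4925 and 3066 on array 5, and ARO80 read 1573 and 2019, then 773 and 797. With normexp background correction and loess in place of the table, ARO9 was at -0.56 and -0.33 and ARO10 at 0.60 and 0.65 on arrays 4 and 5, with the same signs as in the table.

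**Figure D3:**
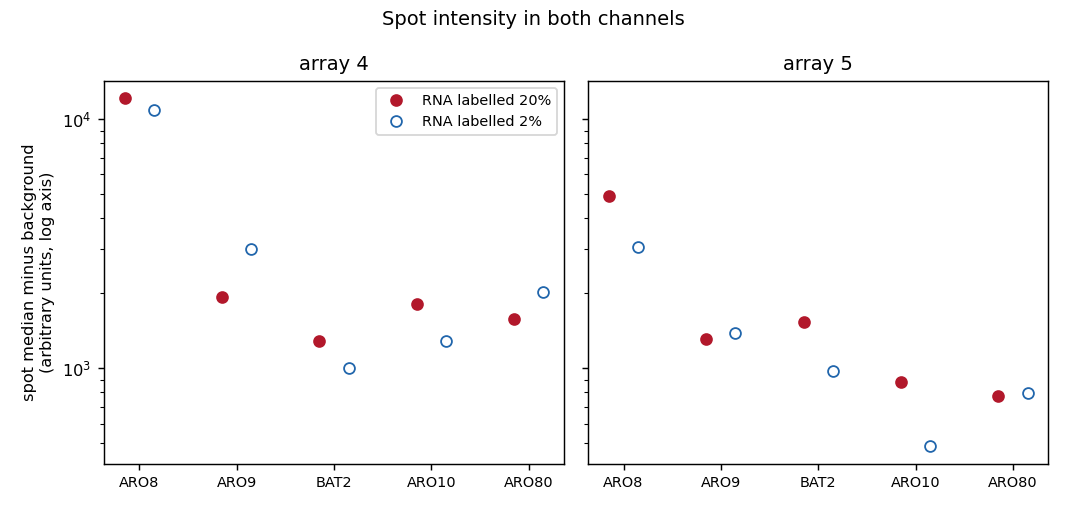
Spot median minus local background (arbitrary units, log axis) for the 5 genes on arrays 4 and 5, with the RNA labelled 20% as filled and the RNA labelled 2% as open circles. ARO10, BAT2 and ARO8 are brighter under the 20% label on both arrays and ARO9 and ARO80 are dimmer; spots of different genes are not compared in level.

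Other ORFs were set beside each gene by the root mean square difference of their 5 log2 ratios, among 4145 named ORFs with 5 values. Those most like ARO10 were SRY1, a serine dehydratase-like enzyme (0.25), HXK1, a hexokinase (0.28), ZWF1, the glucose 6-phosphate dehydrogenase (0.35), SDS24 (0.36) and DUR12, the urea amidolyase (0.37), against a median of 1.29 over all. SRY1 lay at 1.19, 1.34, 1.42, 0.58 and 0.67 on arrays 1 to 5, with the same order of the sets as ARO10. Those most like ARO9 were NPL3, an mRNA-binding protein (0.17), RCR1 (0.18), UFD1 (0.23), NRP1 (0.24) and CPR6, a cyclophilin (0.24), with a median of 0.66. BAT2 was nearest to MDG1 (0.09), APE4 (0.10), SHE4 (0.10), MRX9 (0.11) and ARH1 (0.12), with a median of 0.67. ARO8 was nearest to YSP2, MRS1, NCB2, TIM23 and SRO7 (0.04 to 0.07, median 0.37). ARO80 was nearest to NEJ1, SYN8, TIM22, EMC5 and SOV1 (0.04 to 0.05, median 0.32). These likenesses describe 5 arrays and carry no test.

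The other genes of the pathway were taken from lists chosen, like the 5 genes, with earlier results known. Over all ORFs tested the median fitted log2 ratio was 0.003, and 1551 of 5447, or 28.5%, had p under 0.05 before adjustment. Of 3 other transaminases limma called 0, and 3 had p under 0.05 before adjustment. Besides BAT1, AAT2, the cytosolic aspartate aminotransferase, was at 0.51 ± 0.12 (SE, adjusted p = 0.0685) and AAT1, its mitochondrial counterpart, at -0.34 ± 0.08 (adjusted p = 0.0714). Of 4 other decarboxylases limma called 0, and 2 had p under 0.05 before adjustment, against 28.5% of all ORFs. The pyruvate decarboxylases PDC1 (0.87 ± 0.31 SE), PDC5 (0.99 ± 0.32) and PDC6 (0.49 ± 0.21) had adjusted p of 0.139, 0.118 and 0.187. They lay between -0.06 and 0.58 on arrays 1 to 3 and between 1.02 and 1.85 on arrays 4 and 5. Their sets of arrays were thus ordered opposite to those of ARO10. The PDC1, PDC5 and PDC6 values on arrays 4 and 5 are large enough to be deposited values divided by 10, as those of BAT1 are. PDC1 and PDC5 are similar in sequence and may share signal. The PDC6 ORF has the same length, 1692 base pairs, and whether it shares signal with them was not tested. With the set of arrays as a further term, 3 of 3 transaminases and 3 of 4 decarboxylases passed, where 16.4% of all ORFs were called higher and 13.3% lower.

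Among 10 alcohol dehydrogenases and aldehyde reductases, the enzymes that make the fusel alcohols, 2 were called higher, against 2.24% of all ORFs, and 0 lower, with a median of -0.16. ADH1, the main fermentative alcohol dehydrogenase, lay between 0.44 and 0.82 on the 5 arrays (0.63 ± 0.08 SE, limma adjusted p = 0.0323). ADH2, the glucose-repressed enzyme, lay between 0.61 and 0.81 (0.71 ± 0.07 SE, adjusted p = 0.0294). These 2 genes are close in sequence, so their spots may not be separate. YPR1, an aldo-keto reductase, lay between -3.17 and -0.86 (mean -1.96 ± 1.06 SD, n = 5) and SFA1, which also oxidises formaldehyde bound to glutathione, between -1.41 and -0.42 (fit -0.81 ± 0.18 SE). Neither passed, with adjusted p of 0.0554 and 0.0618. GRE2, a reductase of methylglyoxal and 3-methylbutanal, had values on 4 arrays between -4.07 and -1.25 (adjusted p = 0.0714). Its signal for 20% glucose on array 4 reached only 1.77 times background. ADH6, singled out after its values were seen, lay between 0.02 and 0.11 on arrays 1 to 3 and at -2.03 and -1.91 on arrays 4 and 5. Without array 1, 2, 3 or 5, 0 of the 10 genes were called.

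**Figure D4:**
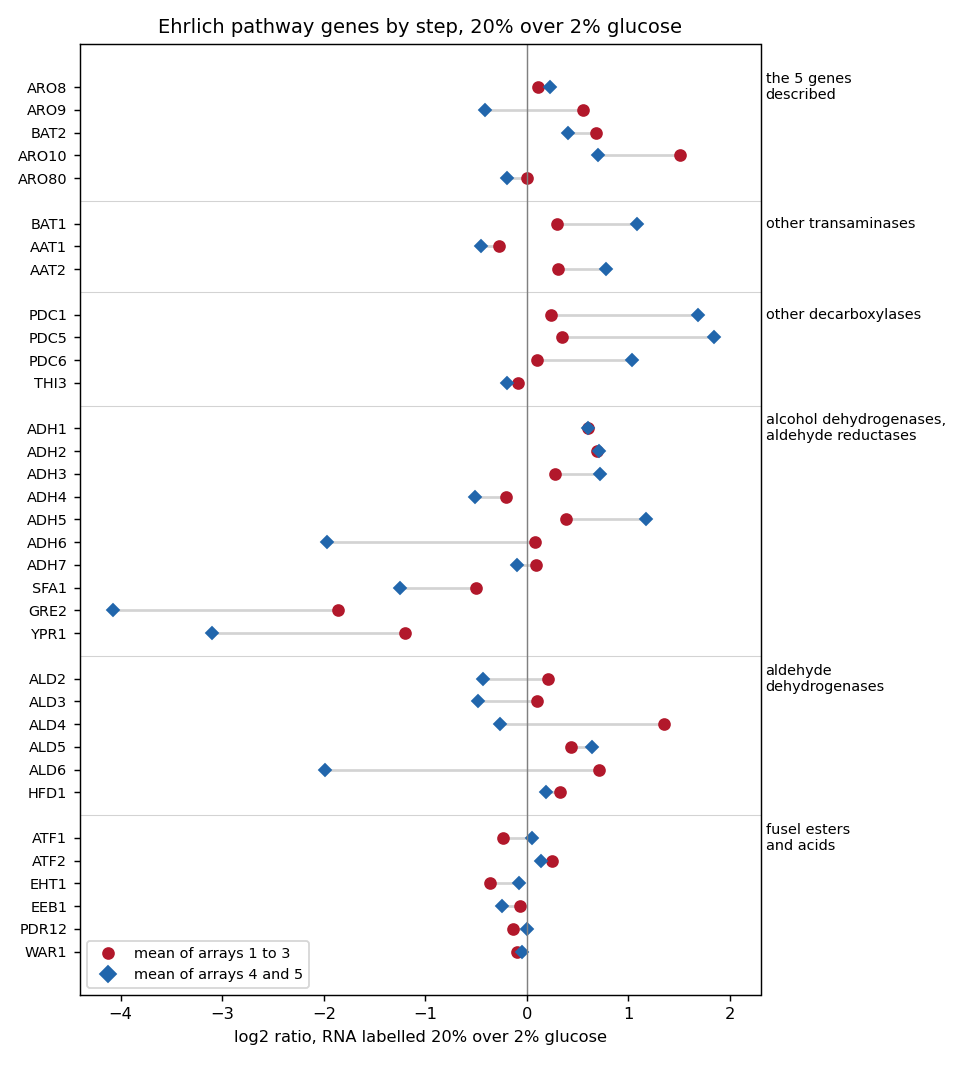
Mean log2 ratio, RNA labelled 20% over 2% glucose, on arrays 1 to 3 (red circles) and on arrays 4 and 5 (blue diamonds), for the 5 genes and for the other pathway genes with at least 4 values, ordered by step. ARO10 is higher on arrays 1 to 3 while PDC1, PDC5 and PDC6 are higher on arrays 4 and 5, and ADH1 and ADH2 are alike in both; GRE2 has 1 value in the second mean.

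The oxidative branch and the handling of the end products had 0 genes called in limma, with 2 aldehyde dehydrogenases and 0 genes for fusel esters and acids at an unadjusted p under 0.05, of 6 tested in each list and against 28.5% of all ORFs. Of 6 aldehyde dehydrogenases ALD5 (0.55 ± 0.11 SE, adjusted p = 0.0543), HFD1 (0.25 ± 0.10, adjusted p = 0.175) and ALD4 (0.62 ± 0.34, adjusted p = 0.284) had the smallest p. ALD4, the mitochondrial enzyme, was above 0 on arrays 1 to 3, up to 1.95, and below 0 on arrays 4 and 5, as was ARO9. ALD6, the cytosolic enzyme, was singled out after its values were seen: it lay between 0.64 and 0.78 on arrays 1 to 3 and at -1.97 and -2.01 on arrays 4 and 5. Of 6 tested genes for fusel esters and acids, the acetyltransferase ATF2 was at 0.22 ± 0.10 (SE, adjusted p = 0.206), and the acyltransferases EHT1 (-0.21 ± 0.10, adjusted p = 0.232) and EEB1 (-0.15 ± 0.08, adjusted p = 0.289) followed.

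The lists of genes that bring in amino acids and of genes repressed by good nitrogen sources share GAP1, AGP1 and PUT4. Of 16 amino acid permeases and members of the SPS amino acid sensor pathway, 4 were called higher, against 2.24% of all ORFs, and 0 lower, with a median of -0.01. These were the general permease GAP1 (1.80 ± 0.15 SE, limma adjusted p = 0.0173), DIP5, a permease of acidic amino acids (1.08 ± 0.12, adjusted p = 0.0306), AGP1, a broad permease (1.13 ± 0.15, adjusted p = 0.0397), and STP2, a factor released by the sensor (0.54 ± 0.09, adjusted p = 0.043). PUT4, the proline permease, was at -1.46 ± 0.31 (adjusted p = 0.0605), GNP1 at -0.59 ± 0.13 (0.0648) and TAT1 at -0.41 ± 0.10 (0.0724). Of 24 targets of nitrogen catabolite repression 7 were called higher, against 2.24% of all ORFs, and 0 lower, with a median of 0.49. Besides GAP1 and AGP1 these were PUT1 of proline breakdown (1.68 ± 0.19), the glutamine synthetase GLN1 (1.19 ± 0.18), the carboxypeptidase CPS1 (0.99 ± 0.10), the arginase CAR1 (0.60 ± 0.10) and the ammonium permease MEP1 (0.53 ± 0.10), with adjusted p between 0.0279 and 0.0493. MEP2 (1.02 ± 0.20, adjusted p = 0.054) and MEP3 (0.36 ± 0.08, adjusted p = 0.0659) did not pass. The nitrogen count was 1, 0, 0 and 0 without array 1, 2, 3 and 5, and the permease count was 0 without any of these 4. On arrays 4 and 5 the values of GAP1, AGP1, DIP5, PUT1 and GLN1 are large enough to be deposited values divided by 10. With deposited values of 10 or more left out, the permease count was 3 and the nitrogen count was 5. Of 4 tested regulators of this response limma called 0, and 0 had p under 0.05 before adjustment, with URE2 at 0.27 ± 0.14, DAL80 at 0.22 ± 0.11 and GLN3 at 0.18 ± 0.11.

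**Figure D5:**
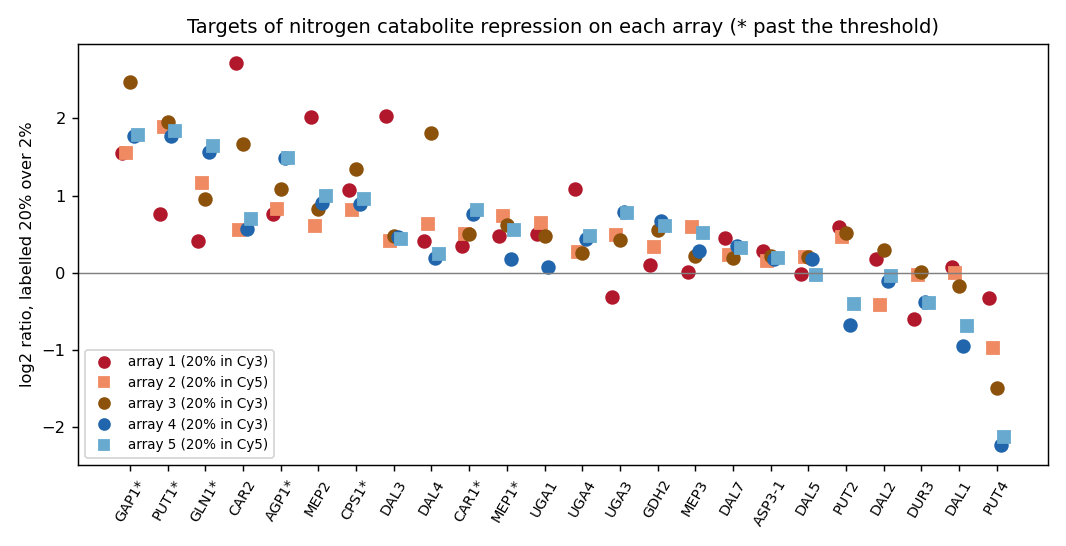
Log2 ratio, RNA labelled 20% over 2% glucose, of 24 targets of nitrogen catabolite repression on each array (squares, 20% label in Cy5; circles, in Cy3), ordered by the fitted ratio, with an asterisk for the 7 past the threshold. Of these genes 20 have a fitted ratio above 0, and PUT4 is lowest at -1.46.

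The synthesis genes of the same amino acids had medians above 0, and their calls stand against 2.24% of all ORFs called higher. Of 12 genes of aromatic amino acid synthesis 2 were called higher, TRP2 (0.64 ± 0.11 SE, adjusted p = 0.043) and TRP5 (0.68 ± 0.12, adjusted p = 0.0438), and 0 lower, with a median of 0.38. TRP1 (-0.44 ± 0.10, adjusted p = 0.0606), TRP4 (0.83 ± 0.20, 0.0703) and ARO2, the chorismate synthase (0.40 ± 0.11, 0.0878), did not pass. Of 11 genes of branched-chain synthesis 1 was called higher, ILV6, the regulatory subunit of acetolactate synthase (0.71 ± 0.11, adjusted p = 0.043), with a median of 0.52. ILV2 (0.90 ± 0.21, adjusted p = 0.0662) and ILV1 (0.44 ± 0.12, 0.0835) followed. Of 4 tested markers of stationary phase cells, which the overnight culture could carry over, 1 was called lower, against 1.45% of all ORFs, and 0 higher. The gene called was FMP45 (-0.84 ± 0.10, limma adjusted p = 0.0422). Leaving out any 1 of the 5 arrays ended this call and all calls in both synthesis lists. SNZ1, SNO1 and SPG5 were at 0.73 ± 0.30, 0.90 ± 0.49 and 0.16 ± 0.22, and differed by set. SNO1 averaged 2.26 on arrays 4 and 5 and lay between -0.29 and 0.18 on arrays 1 to 3. SNZ1 averaged 1.49 on arrays 4 and 5 and 0.18 on arrays 1 to 3, and SPG5 averaged -0.22 and 0.42. The summed net intensity of the 6 marker spots was 23601 under the 20% label and 17235 under the 2% label on array 4, and 6571 and 3561 on array 5. The largest part of the array 4 sums came from SPG1, at 8144 and 7502. That spot read only 66 and 41 on array 5 and has no deposited ratio on either array. The spots did not all go one way: on array 4 SNO1 read 4887 and 1149 and SNZ1 5628 and 2126, but FMP45 read 966 and 1930 and SPG5 3307 and 4208, each as 20% then 2% label. On array 5 FMP45 read 326 under the 20% label and 558 under the 2% label, and SPG1 and SPG4 were under 2 times background under the 2% label. Their part in the ratios of the 5 genes was not tested.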

How the data were processed

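The deposited table holds log2 ratios that the authors deposited already normalized; the sources used here do not give the method. Per the file headers, the scanner files of arrays 4 and 5 hold spot and background intensity at both wavelengths, log2 ratios and a flag, a quality score. Deposited values of 10 or more in size on arrays 4 and 5 (258 and 262) were divided by 10; the correlation with the scanner ratios was then 0.99 and -0.96, against 0.78 and -0.77. These signs and the dye labels give 2% over 20% glucose on both arrays, so all values were multiplied by -1. Arrays 1 to 3 were taken to have the same direction, since they correlate positively with arrays 4 and 5 (0.26 to 0.37 across ORFs); their scale, and whether the dye labels hold, stay unknown. Array medians lie between -0.010 and -0.0021.

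Spots of 1 ORF were averaged. The 5447 ORFs with at least 4 values were fitted with limma 3.58.1 (R 4.3.3) with a dye term, two-sided, with Benjamini-Hochberg adjustment over all ORFs and a threshold of 0.05; the procedure was tested on simulated data, and 19 alternative settings were tried. The simulated arrays had independent noise, so that test could not show what correlated arrays do to the calls. The number of arrays limits the precision. The 5 genes and the 12 lists were chosen with earlier results of these data known. Named are the 5 genes, list genes past the threshold, up to 3 more per list with the smallest p, the 5 nearest ORFs of each gene, and ADH6 and ALD6, singled out after their values were seen. Gene names come from RefSeq (R64), which matched 5705 of 6205 ORFs. No genome build is named for the arrays, so positions are left out, and no sequences were used here.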

Additional observations from a re-analysis of the deposited data

Results flagged for a closer look

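ARO9 was above 0 on each of arrays 1 to 3 and below 0 on arrays 4 and 5, with a difference of -0.96 (log2) for arrays 4 and 5 minus arrays 1 to 3. ALD4 showed the same with -1.62. The pattern is not particular to these 2 genes: 9.76% of the ORFs with 5 values had these signs. Only the 5 genes, list genes past the threshold and those with the smallest p were screened. Other list genes had the same signs, among them ALD6 (-2.69), ADH6 (-2.05) and PUT2 (-1.07). None of these differences was tested, and the 2 sets of arrays are not named as groups in the labels.

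Of the 52 named genes with 5 values, 8 had 1 array far from the other 4. For 5 independent values about 1 in 20 groups would show this. That rate does not hold here, since the arrays fall into 2 sets and all genes share them, so no excess is read from the count. Array 1 was the one apart for PUT1 (0.76, nearest other 1.78), TRP2 (0.18, nearest 0.66), ALD5 (0.0371, nearest 0.56), URE2 (-0.30, nearest 0.29) and MEP2 (2.01, nearest 1.00). Array 3 was apart for GAP1 (2.48, nearest 1.79) and HFD1 (0.64, nearest 0.23), and array 2 for HXT2 (1.54, nearest 2.40). None of the 5 Ehrlich pathway genes described had such an array.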

How the results depend on the processing

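The log2 ratios of the 5 genes moved by less than 1 SD of their arrays in all 95 refits. That SD comes from the same 5 arrays and is a wide measure. Some settings, such as leaving out dim spots, did not change the values of these genes at all. On arrays 4 and 5 alone ARO10 went from 1.16 to 0.70 (SD 0.47) and ARO9 from 0.14 to -0.41 (SD 0.61), which is still within it. Leaving out 1 array gave 0.99 to 1.33 for ARO10, 0.51 to 0.61 for BAT2, 0.16 to 0.21 for ARO8, -0.06 to 0.33 for ARO9 and -0.15 to 0.003 for ARO80. The sign turned for ARO9 without array 1 or 2 and on arrays 4 and 5 alone (-0.41), and for ARO80 without array 5 and on arrays 1 to 3 alone (0.03). The count of these genes called higher was 2, and 0 with values of 10 or more as deposited and with the scanner log ratio on arrays 4 and 5; leaving out 1 array gave 0 to 2.

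The counts of calls depended on the fit. Against 122 higher, 79 lower and 18 list genes, limma called 463, 456 and 40 without a dye term, 894, 724 and 65 with a term for the array set, 593, 308 and 34 on arrays 1 to 3 alone and 1496, 1428 and 83 on arrays 4 and 5 alone. The counts on these sets alone, and the fit with arrays 4 and 5 averaged (ARO10 1.30, ARO9 0.31, BAT2 0.61), were added after seeing the data. The fit on arrays 4 and 5 alone and the averaged fit held no dye term. With the scanner log ratio the 3 counts were 45, 25 and 11, and with values as deposited 1, 0 and 0, with 1341 ORFs at an unadjusted p under 0.05. ORFs with 5 values gave 120 lower. Leaving out 1 array gave 0 to 67 higher, 0 to 36 lower and 0 to 14 list genes; without array 3, where limma called 0, 1096 ORFs had an unadjusted p under 0.05. The causes were not tested. Of the refitted counts of single lists, 79 moved by over 1.5 times, or to or from 0, and 149 did not. The 149 include counts that were 0 in both fits, such as 18 refits for fusel esters and acids and 17 for the other decarboxylases. Each ratio already pairs the 2 labels on 1 array. No further pairing was possible because the 5 ratios form 1 group, with no second group that shares replicate numbers. The main fit treated the 5 arrays as independent, although arrays 4 and 5, and arrays 2 and 3, may share RNA. Signal over background limits the ratios of GRE2 (1.77 times on array 4) and HXT1 (1.95 times on array 5) in the 20% channel.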
